A study of Mus musculus with 6 samples.

Results

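A group of 10 genes of the endoplasmic reticulum (ER) folding and stress machinery was followed in brown fat of mice exposed to cold: Hspa5, Hsp90b1, Calr, Pdia3, Pdia4, Pdia6, Manf, Herpud1, Atf4 and Xbp1. They were taken as a list of gene names drawn up with earlier results of these data known, so their counts are a description, and 9 of them are among the 8129 genes with reads in the data set. Of these, 5, namely Hspa5, Manf, Herpud1, Calr and Atf4, rose in the cold by between 1.84-fold and 11.1-fold, where 18.1% of the 2093 genes tested were called higher. Pdia6 and Xbp1 were tested and not called, Hsp90b1 and Pdia3 had too few reads for the test, and Pdia4 had no read in any library.

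Messenger RNA of interscapular brown adipose tissue, the heat-producing fat between the shoulder blades, was read as full-length cDNA on nanopore flow cells. The 6 libraries came from 6 wild-type male C57BL/6N mice aged 20 weeks, 3 controls (mice 2, 9 and 14) and 3 cold-exposed animals (mice 4, 11 and 15). Cold exposure lasted 24 h at 4 °C with each mouse caged alone, and standard husbandry was at 22 to 24 °C. The cold protocol stands on the record of every sample, so the groups were taken from sample titles and treatment tags. Whether the controls were caged alone is not known, and single housing cannot be told apart from the cold.

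The ER folds secreted and membrane proteins with the help of chaperones, disulfide isomerases and sugar-reading lectins, and sends misfolded proteins to the cytosol for degradation. When unfolded proteins build up, sensors in the ER membrane start the unfolded protein response: IRE1 splices the Xbp1 messenger, PERK slows translation and thereby raises production of the ATF4 protein, and ATF6 is cut to release a transcription factor. The spliced XBP1, ATF4 and ATF6 proteins drive genes for chaperones and for ER-associated degradation. In brown adipocytes, protein quality control is known to take part in the adaptation to cold.

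Control libraries held 1849351, 1014812 and 1735298 reads matched to annotated transcripts, and cold libraries held 2922939, 2982630 and 2951811. The shallowest cold library exceeded the deepest control library, which confounds depth with group in the raw counts: the 2 cannot be told apart there. The member results were therefore also computed at equal depth. Levels are given as CPM, reads relative to the library total, scaled between libraries by trimmed mean of M-values. They are levels of cDNA molecules with no adjustment for length. The mean annotated length of counted reads was 1364.5, 1489.9 and 1506.1 nt in the controls. In the cold it was 1560.8, 1577.4 and 1529.4 nt, above every control. The part of this length difference in the member changes was not tested. A floor of 3 reads corresponds to 1.62, 3.07 and 1.79 CPM in the controls and 1.00, 0.989 and 0.985 CPM in the cold libraries. The reads carry no molecular identifiers, so floors and intervals of shares cover counting error only.

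The tissue label was checked against markers. All 14 brown adipocyte markers had reads, summing to 53120 to 61147 CPM in controls and 72071 to 78655 CPM in the cold, and Ucp1, the uncoupling protein that makes heat, stood at 4503 ± 333 and 4114 ± 44.8 CPM (SD, n = 3 each). Of 11 markers of plasma and B cells, whose secretory ER is rich in these chaperones, 3 had reads, the sum never passed 0.669 CPM, and Jchain, Mzb1 and Ighm were at 0. Macrophage markers overlapped between the groups, at 53.2 to 86.0 CPM and 53.4 to 122 CPM, with Adgre1, Cd68, Csf1r and Mrc1 at 0. Fibroblast markers, 5 of 8 with reads, summed to 15.5 to 38.9 CPM and 30.8 to 53.2 CPM, with Col1a1, Col3a1 and Pdgfra at 0. Endothelial markers, 9 of 10 with reads and Tek at 0, summed to 457 to 599 CPM in controls and 840 to 956 CPM in the cold. White adipocyte markers, 5 of 7 annotated ones with reads and Hoxc9 and Tcf21 at 0, summed to 66.3 to 119 CPM and 166 to 255 CPM. The part of the brown adipocyte, endothelial, white adipocyte and fibroblast marker differences in the results was not tested. Skeletal muscle markers, 9 of 10 with reads and Myh2 at 0, ranged from 110 to 892 CPM in controls and from 172 to 11973 CPM in the cold. Cold mouse 15 had the highest sum, and cold mouse 11, at 2674.5 CPM, was also above every control. All 5 member calls held when either library was left out, but no fit left out both. The part of the muscle difference in the results was not tested.

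The sequences below are shown because they connect the members to the pathway: the promoter element that ATF6 and XBP1 are known to bind and the Xbp1 segment that IRE1 removes. The ER stress response element (ERSE) was searched as CCAAT, 9 bases of any kind and CCACG, on both strands, in RefSeq promoter windows of build GRCm38.p6, each from 250 bases before to 50 bases after a gene's start. It occurred in 39 of 32851 windows (0.119%), among them the windows of 4 of the 9 members with a window, Hspa5, Calr, Hsp90b1 and Pdia6. Herpud1 held the related ERSE-II, which is ATTGG, 1 base of any kind and CCACG, present in 12 windows (0.0365%). Each match is printed 5′ to 3′ on the strand of its gene, with 5 bases on either side and the fixed letters of the motif in capitals. Calr and the nearer Hsp90b1 match carry the element in reverse.
Hspa5, chr2:34772020-34772048, plus strand: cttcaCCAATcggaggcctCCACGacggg
Calr, chr8:84847070-84847098, minus strand: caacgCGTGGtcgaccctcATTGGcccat
Hsp90b1 nearer match, chr10:86705528-86705556, minus strand: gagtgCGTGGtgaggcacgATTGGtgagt
Hsp90b1 farther match, chr10:86705633-86705661, minus strand: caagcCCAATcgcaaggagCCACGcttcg
Pdia6, chr12:17266486-17266514, plus strand: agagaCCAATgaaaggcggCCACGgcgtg
Herpud1 ERSE-II, chr8:94386372-94386392, plus strand: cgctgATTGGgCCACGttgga

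The Hspa5 match began 65 bases before the RefSeq start and lay inside the first exon that GENCODE annotates for the longer transcript Hspa5-201. The Calr match began 162 bases before the start, the Pdia6 match 98, the Hsp90b1 matches 107 and 212, and the Herpud1 match 52. With the last base of ERSE dropped, so that it ends in CCAC and every ERSE match also holds it, 120 windows (0.365%) matched, and Herpud1, Pdia3 and Pdia4 joined the other 4 members. The Atf4 and Xbp1 windows held neither form, and Manf had no window. The members with a match thus include called genes (Hspa5, Calr, Herpud1), a gene that was tested and not called (Pdia6) and the 3 genes too low to test. A match is a run of letters and was not measured as a binding site.

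The folding chaperones gave the largest change. Hspa5 (ENSMUSG00000026864, GRCm38 chr2:34771970-34777547, plus strand) encodes BiP, the Hsp70 chaperone of the ER lumen, which also holds the stress sensors inactive. Its level was 9.70, 19.5 and 17.9 CPM in the controls and 177, 200 and 135 CPM in the cold. The lowest cold library lay far above the highest control, with cold mouse 15 the lowest of its group. Hspa5 rose 11.1-fold, from 15.7 ± 5.25 to 171 ± 33.1 CPM (SD, n = 3 each), a log2 change of 3.47 ± 0.30 (standard error, SE; 95% interval 2.80 to 4.13; adjusted p = 2.8e-05). Tests of genes are edgeR quasi-likelihood tests with Benjamini-Hochberg adjustment over 2093 genes, and a gene was called at an adjusted p under 0.05. Because the tissue was measured in bulk, more cells that express a gene and more of its RNA per cell cannot be told apart, here and in all results that follow.

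Calr (ENSMUSG00000003814, chr8:84841850-84846934, minus strand) encodes calreticulin, a lectin chaperone that binds sugar-tagged proteins and calcium in the ER. It stood at 23.2, 47.1 and 38.3 CPM in the controls and at 102, 80.8 and 88.3 CPM in the cold. All cold values lay above all control values, and control mouse 2 was lowest. Calr rose 2.53-fold, from 36.2 ± 12.1 to 90.2 ± 10.6 CPM, a log2 change of 1.34 ± 0.27 (0.74 to 1.94; edgeR adjusted p = 0.00370).

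Hsp90b1 (ENSMUSG00000020048, chr10:86690209-86705509, minus strand), the ER form of Hsp90 also known as GRP94, had 19 reads in all. They were 1, 0 and 1 in the controls and 6, 2 and 9 in the cold. The groups did not overlap in CPM, but the nearest libraries were 0.598 CPM in control mouse 14 and 0.659 CPM in cold mouse 11, both under their 3-read floors. It failed the low-count filter, and when all genes with a read were fitted its log2 change was 2.07 ± 1.02 (edgeR adjusted p = 0.272), where 5.52% of the 8129 genes so fitted were called higher. Its annotation shares 270 exon bases with 1810014B01Rik on the opposite strand, so its few reads could in part be those of the other gene.

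Among the disulfide isomerases no member was called. Pdia6 (ENSMUSG00000020571, chr12:17266545-17284770, plus strand), which forms and rearranges disulfide bonds of folding proteins and binds BiP, stood at 4.85, 3.07 and 4.78 CPM in the controls and 5.02, 4.62 and 7.22 CPM in the cold. The groups overlapped, and its 71 reads gave a log2 change of 0.35 ± 0.39 (−0.50 to 1.21; edgeR adjusted p = 0.518), an interval that holds both no change and a rise as large as that of Atf4. Pdia3 (ENSMUSG00000027248, chr2:121413775-121438687, plus strand), the isomerase that works with calreticulin and calnexin, had 5, 0 and 5 reads in the controls and 12, 9 and 15 in the cold. In CPM its groups overlapped, 0 to 2.99 against 2.97 to 4.92. Fitted without the low-count filter, its log2 change was 0.98 ± 0.61 (edgeR adjusted p = 0.485). Pdia4 (ENSMUSG00000025823, chr6:47796141-47813430, minus strand), a further luminal isomerase, had 0 reads in each library, which allows a level of up to 3.07 CPM in the shallowest library and 0.985 CPM in cold mouse 15. Its annotated coding transcript is 2399 nt long, between the 2175 nt of Pdia6 and the 2770 nt of Pdia3. Whether length had a part in the absence of Pdia4 reads was not tested.

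Manf (ENSMUSG00000032575, chr9:106838312-106891979, minus strand) encodes a small soluble protein that is kept in the ER lumen, binds BiP and is released from stressed cells. It stood at 2.16, 4.10 and 4.78 CPM in the controls and at 24.1, 21.4 and 22.6 CPM in the cold. The cold libraries lay close together and all far above the controls, whose counts were 4, 4 and 8 reads. Manf rose 6.27-fold, from 3.68 ± 1.36 to 22.7 ± 1.32 CPM, a log2 change of 2.65 ± 0.33 (1.92 to 3.37; edgeR adjusted p = 0.000213).

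Herpud1 (ENSMUSG00000031770, chr8:94386438-94395377, plus strand) encodes a membrane protein with a ubiquitin-like domain that helps assemble the ER-associated degradation complex. Its level was 16.7, 14.3 and 16.7 CPM in the controls and 45.5, 43.9 and 45.0 CPM in the cold. Both groups were tight and did not overlap. Herpud1 rose 2.78-fold, from 15.9 ± 1.38 to 44.8 ± 0.829 CPM, a log2 change of 1.48 ± 0.23 (0.98 to 1.98; edgeR adjusted p = 0.000693).

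Both transcription factors among the members are controlled mainly after transcription, Atf4 through translation and Xbp1 through splicing, so transcript counts do not measure their activity. Atf4 (ENSMUSG00000042406, chr15:80255184-80257541, plus strand), which drives amino acid supply and redox genes under stress, stood at 229, 220 and 201 CPM in the controls. In the cold it stood at 423, 349 and 422 CPM, with no overlap and with cold mouse 11 lowest of its group. Atf4 rose 1.84-fold, from 217 ± 14.1 to 398 ± 42.8 CPM, a log2 change of 0.88 ± 0.18 (0.47 to 1.28; edgeR adjusted p = 0.00437). Xbp1 (ENSMUSG00000020484, chr11:5520659-5525893, plus strand), the factor made active by IRE1, stood at 6.47, 3.07 and 3.59 CPM in the controls and 2.68, 9.89 and 7.55 CPM in the cold. Cold mouse 4 was below all controls and the other two cold mice above them, so the groups overlapped. The log2 change of Xbp1 was 0.54 ± 0.52 (−0.61 to 1.69; edgeR adjusted p = 0.454), on 82 reads in all.

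**Figure D1:**
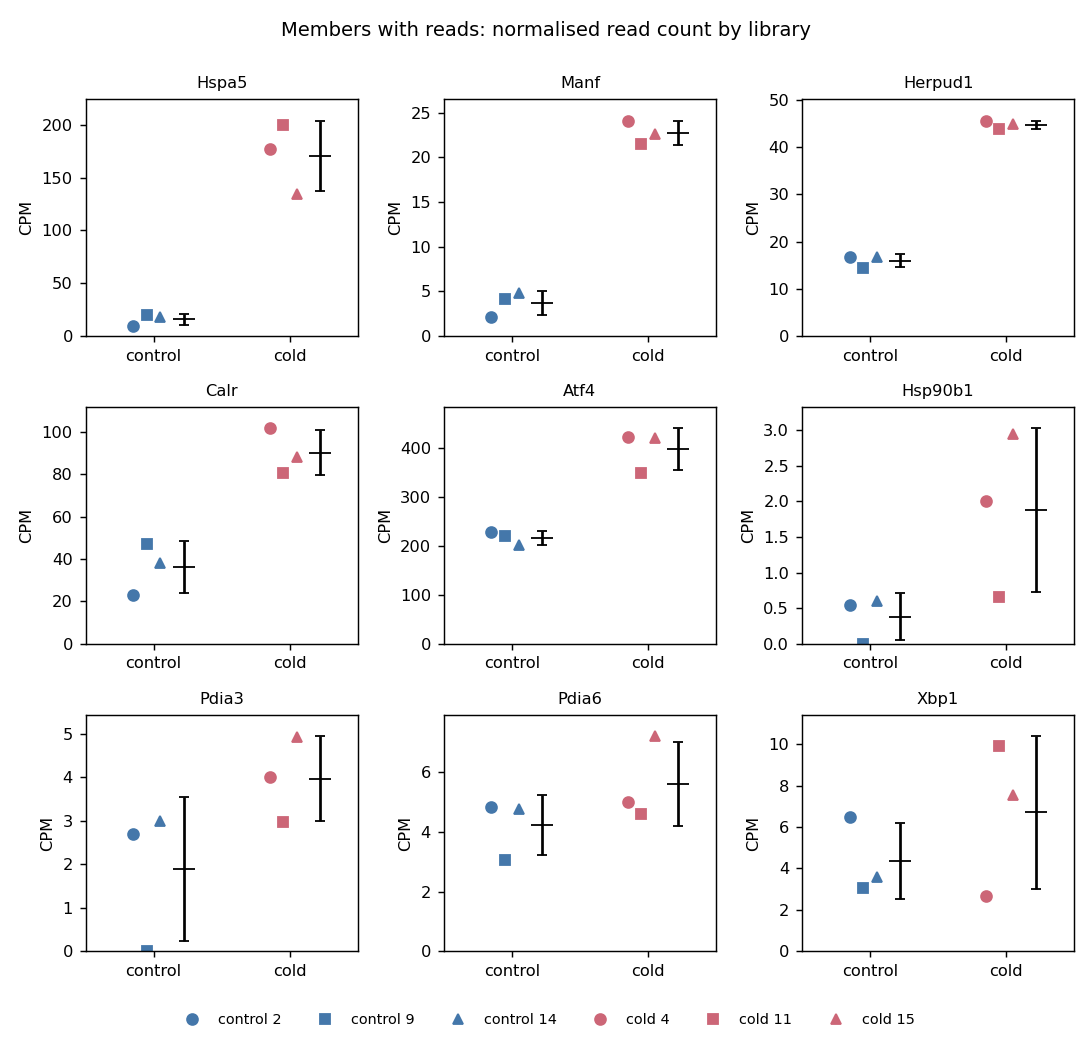
Normalised read count (CPM, linear axis from 0, a scale of its own in each panel) of the 9 members with reads, 1 point per library, with the mean and SD of each group of 3 as a bar. Hspa5, Manf, Herpud1, Calr and Atf4 separate the groups with a wide gap, whereas the points of Pdia3, Pdia6 and Xbp1 overlap and Hsp90b1 stays under 3 CPM.

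Of the 7 tested members, 5 were called higher and 0 lower. Over all tested genes, 18.1% were called higher, 15.1% lower and 33.2% in either direction. Manf, with 4, 4 and 8 control reads, and Pdia6, with 9, 3 and 8, passed the low-count filter only because of their cold libraries. The 5 called members were also those of the 7 whose cold libraries all lay above the controls, a separation shown by 26.0% of all tested genes. The median log2 change over all tested genes was 0.04. Ranked by log2 change among the 2093 tested genes, Hspa5 was at place 35, Manf at 57, Herpud1 at 173, Calr at 201 and Atf4 at 385, with Xbp1 at 586 and Pdia6 at 734. Hspa5 and Manf thus passed a log2 change of 2 together with a call, as did 3.82% of tested genes, and the other called members did not. Summed over all members the level was 295, 311 and 291 CPM in the controls and 786, 713 and 735 CPM in the cold. Atf4, with means of 217 and 398 CPM, was the largest part of the sum in both groups. Hspa5, with means of 15.7 and 171 CPM, was the next largest in the cold, so the sum mostly describes these genes.

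**Figure D2:**
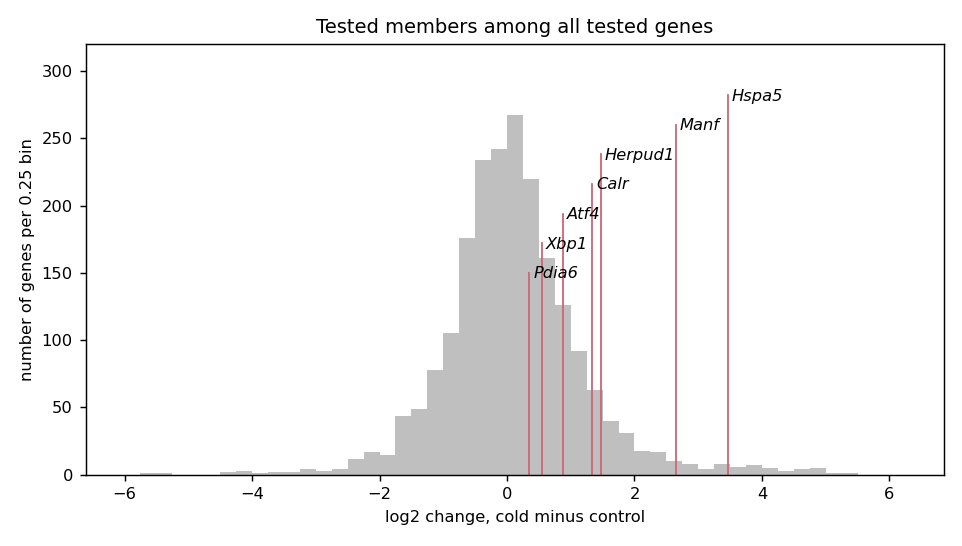
Distribution of the log2 change, cold minus control, over the 2093 tested genes (grey, number of genes per bin of 0.25), with the 7 tested members as red lines whose heights only separate the labels. Hspa5 at 3.47 and Manf at 2.65 lie in the right tail, and Pdia6 at 0.35 and Xbp1 at 0.54 lie within the bulk.

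The member changes were of like size at equal depth. With every library thinned to 1014812 reads, the total of the shallowest one, the log2 changes were 3.54 for Hspa5, 2.50 for Manf, 1.44 for Herpud1, 1.25 for Calr and 0.87 for Atf4, each called by edgeR (largest Benjamini-Hochberg adjusted p 0.00429, for Atf4). The same 5 members and no other were called under all 15 alternative settings, which include DESeq2 and the removal of each library in turn.

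Across the 6 libraries the log2 level of Hspa5 ran closest to that of Manf among the members (Pearson r = 0.991), followed by Herpud1 (0.965), Calr (0.955) and Atf4 (0.924), and was far from Pdia6 (0.446) and Xbp1 (0.281). These correlations largely restate the difference between the groups, which the libraries share along with depth, and are given as a description. Among genes outside the pathway set, the 5 most like Hspa5 were Arpc5l (r = 0.996), an Arp2/3 complex subunit, Adcy3 (0.996), an adenylate cyclase, Atg4d (0.995), an autophagy protease, Pigq (0.994), of glycolipid anchor synthesis in the ER, and Zfp652 (0.994), a zinc finger protein. Their log2 changes were 1.25, 4.76, 2.28, 1.87 and 1.78. These 5 were picked for the highest r of all tested non-members, and r takes no account of the size of a change. Their likeness to Hspa5 is thus a description and no result about them.

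The reads were also counted per transcript. How reads that match several transcripts were assigned is not known, so the split of a gene between its forms rests on that unstated rule. Hspa5 has a longer transcript, Hspa5-201 (3672 nt, 9 exons), and a shorter one, Hspa5-202 (2613 nt, 8 exons), which share the same 1965 coding bases and differ in their untranslated ends. Hspa5-201 stood at 1.62, 5.14 and 8.33 CPM in the controls and 82.4, 83.5 and 50.1 CPM in the cold. Hspa5-202 stood at 8.10, 14.4 and 9.52 CPM in the controls and 95.8, 118 and 82.7 CPM in the cold. Both forms were higher in each cold library than in each control. Over 2787 tested transcripts, of which 17.4% were called higher and 32.7% in either direction, edgeR gave log2 changes of 3.85 ± 0.44 (adjusted p = 7.2e-05) and 3.25 ± 0.29 (adjusted p = 1.2e-05).

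The share of Hspa5 reads on the shorter form was 83.3%, 73.7% and 53.3% in the controls and 53.8%, 58.6% and 62.3% in the cold. The groups overlapped, with means of 70.1 ± 15.3% and 58.2 ± 4.27% (SD, n = 3; exact two-sided permutation p = 0.4, where 0.1 is the smallest possible). The control shares rest on 18, 19 and 30 reads. The test of transcript usage over 539 genes, 1.48% of them called, did not call Hspa5 (unadjusted p = 0.588, adjusted p = 0.9999, edgeR).

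Reads of Atf4 were counted almost wholly on Atf4-201 (1725 nt, 3 exons), a form with an annotated coding frame. Atf4-201 stood at 216, 215 and 192 CPM in the controls and 416, 343 and 399 CPM in the cold (log2 change 0.89 ± 0.18, edgeR adjusted p = 0.00319). A retained-intron form, Atf4-203, stood at 13.5, 6.17 and 8.33 CPM and at 10.1, 8.98 and 16.5 CPM, and its groups overlapped (0.29 ± 0.37; edgeR adjusted p = 0.584). Its estimate turned to −0.03 without cold mouse 15. Atf4-201 held 94.1%, 97.2% and 95.8% of Atf4 reads in the controls and 97.6%, 97.4% and 96.0% in the cold. These shares overlapped (exact two-sided permutation p = 0.2, with n = 3 per group and 0.1 the smallest possible), and usage was not called (unadjusted p = 0.267, adjusted p = 0.9999, edgeR).

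The remaining called members had 1 main form each. Calr had reads on Calr-201 alone. Herpud1-205 rose by a log2 change of 1.45 ± 0.24 (edgeR adjusted p = 0.000845) beside 18 reads of Herpud1-201 and 1 of Herpud1-206. Manf-202 rose by 2.62 ± 0.34 (edgeR adjusted p = 0.000177) beside 4 reads of Manf-201.

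**Figure D3:**
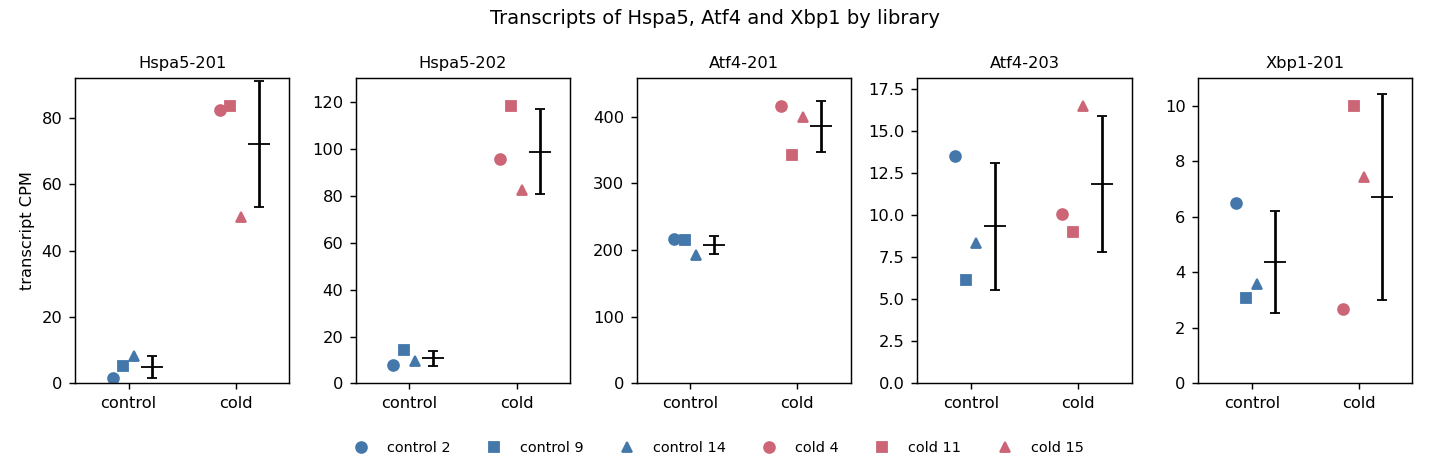
Level of the transcripts of Hspa5, Atf4 and Xbp1 (transcript CPM, linear axis from 0, a scale of its own in each panel), 1 point per library, with the mean and SD of each group of 3 as a bar. Both Hspa5 forms and Atf4-201 separate the groups, and Atf4-203 and Xbp1-201 do not.

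The counts cannot show whether IRE1 was active. IRE1 removes 26 bases from the Xbp1 messenger, which shifts its reading frame. Among pairs of cut sites of the form CNGCNG that lie 20 to 30 bases apart, the pair whose removal lengthened the reading frame most lay in exon 4 of Xbp1-201 at chr11:5524279-5524304 of GRCm38 and encloses 26 bases. The segment is printed with 20 coding bases on either side and the removed bases in capitals.
Xbp1-201, chr11:5524259-5524324, plus strand: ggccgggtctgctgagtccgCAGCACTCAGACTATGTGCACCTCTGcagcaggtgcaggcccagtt
Taking these bases out lengthened the open frame from 267 to 371 codons. Of 4 annotated Xbp1 transcripts, 3 hold the segment and 0 have it removed, so reads of the spliced messenger have no entry of their own and can be counted only on another entry. Every Xbp1 read in the files was on Xbp1-201, 12, 3 and 6 reads in the controls and 8, 30 and 23 in the cold, which bounds its share from below at 73.5%, 29.2% and 54.1% in the controls and 63.1%, 88.4% and 85.2% in the cold (exact 95% binomial limits).

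The other genes of the pathway moved in both directions. A set of 8 lists of ER genes held 157 non-members, of which 116 had reads and 36 were tested. Of these, 7 were called higher and 6 lower, or 19.4% called higher beside 18.1% of all tested genes, with a median log2 change of 0.19 beside 0.04. The share called higher was thus near the background. The lists below have between 2 and 11 tested genes each, so their counts, to be read beside 18.1% called higher and 15.1% lower over all tested genes, describe the named genes and set no list apart.

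In the Hsp70 cycle of the ER, 4 of 20 genes were tested, with 2 higher (the members Hspa5 and Manf), 1 lower and a median of 1.37. The lower gene was Creld1, at 11.6 ± 6.83 and 3.65 ± 1.47 CPM (log2 change −1.55 ± 0.48; edgeR adjusted p = 0.0287), a call lost without control mouse 9 (−1.10), cold mouse 11 (−1.68) or cold mouse 15 (−1.25). Creld1, with 14, 13 and 6 cold reads, passed the low-count filter only because of its control libraries. Cnpy2 was at 0.09 and not called. Of 23 disulfide isomerases and oxidases 4 were tested and 0 called, with a median of 0.34 over Txndc12 (0.62), Pdia6, Tmx2 (0.33) and Erp29 (0.16). In the calnexin and calreticulin cycle, the quality control of sugar-tagged proteins, both tested genes of 11 were called higher. Beside Calr this was Prkcsh, the beta subunit of glucosidase II, which trims those sugars. Prkcsh rose from 8.57 ± 3.48 to 20.5 ± 1.58 CPM (1.22 ± 0.30; edgeR adjusted p = 0.0100), a call lost on flow cell 2 alone (adjusted p = 0.0765).

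Of 30 genes of ER-associated degradation 7 were tested, with 3 higher, 2 lower and a median of 0.16. Beside Herpud1, Selenos, a selenoprotein that ties the export complex to the ATPase VCP, rose from 92.7, 66.5 and 92.1 CPM to 166, 152 and 162 CPM (0.93 ± 0.21; edgeR adjusted p = 0.00635). Rnf5, a ubiquitin ligase of the ER membrane, rose by 1.15 ± 0.32 (edgeR adjusted p = 0.0194), a call lost under 5 of 13 settings, among them the removal of control mouse 14, cold mouse 4 or cold mouse 15 (adjusted p up to 0.0704) and DESeq2. Derl1, a derlin of the export channel, fell from 234, 393 and 252 CPM to 138, 161 and 110 CPM (−1.11 ± 0.25; edgeR adjusted p = 0.00656). Vcp, the ATPase that pulls proteins out of the membrane, fell from 11.3, 14.3 and 24.5 CPM to 4.68, 7.25 and 4.92 CPM (−1.57 ± 0.36; edgeR adjusted p = 0.00711), a call lost on flow cell 1 alone (−0.90, adjusted p = 0.203). Within this list Herpud1 and Selenos rose while Derl1 and Vcp fell, with no overlap of groups in any of the 4. Such separation is common: over all tested genes, 26.0% had every cold library above every control and 21.8% below. Selenok (0.16) and Ufd1 (−0.54) were not called, although Ufd1 was called lower without control mouse 14 (−0.93, edgeR adjusted p = 0.0320).

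Most stress sensors were beyond the reach of these libraries. Of 26 sensors and transcription factors 17 had reads and 6 were tested, with 1 higher (Atf4), 0 lower and a median of 0.47. Ern1, Eif2ak3 and Atf6, the genes of IRE1, PERK and ATF6, had 0 reads in every library. Their longest annotated coding transcripts are 6946, 4513 and 7246 nt, beside mean annotated lengths of counted reads of 1364.5 to 1577.4 nt per library, and whether length set their absence was not tested. Ddit3, which encodes CHOP, stood at 16.2, 15.4 and 19.1 CPM in the controls and 24.7, 21.1 and 36.1 CPM in the cold. Its groups did not overlap, but the log2 change of 0.68 ± 0.28 missed the threshold (edgeR adjusted p = 0.0814). Atf5, an ATF4 relative, was at 0.41 (edgeR adjusted p = 0.227, but 0.0385 at a log2 change of 0.54 without the low-count filter). P values without the filter are not on the scale of the main fit, as set out under the other observations. Cebpb (−0.06), whose sign changed with the setting, and Nfe2l2 (−0.64) were not called. Below the filter, Creb3 had 48 reads in all, Eif2s1 45, Nfe2l1 20, Ppp1r15a 5, Atf3 and Trib3 4 each, Ppp1r15b 3, Atf6b and Cebpg 2 each, and Mbtps1 and Eif2ak4 1 each.

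Of 41 known ATF4 target genes 11 were tested, with 2 higher, 3 lower and a median of 0.36. Slc3a2, the heavy chain of several amino acid transporters, rose from 4.31, 4.10 and 6.58 CPM to 19.4, 15.8 and 17.1 CPM (1.77 ± 0.31; edgeR adjusted p = 0.00144). Sars, a seryl-tRNA synthetase, rose by 0.88 ± 0.29 (edgeR adjusted p = 0.0373), a call lost under 11 of 15 settings, including the removal of any 1 library (0.70 to 0.97). Slc3a2, with 8, 4 and 11 control reads, passed the low-count filter only because of its cold libraries. The 3 falls kept their calls under all 15 alternative settings. Among them, Psph, with 13, 16 and 7 cold reads, passed the filter only because of its control libraries. Eif4ebp1, a repressor of cap-dependent translation, fell from 65.7, 56.3 and 30.5 CPM to 4.68, 6.59 and 11.5 CPM (−2.73 ± 0.38; edgeR adjusted p = 0.000444). Psph, the last enzyme of serine synthesis, fell from 21.1 ± 3.00 to 3.97 ± 1.52 CPM (−2.38 ± 0.33; edgeR adjusted p = 0.000432), though its exons overlap those of Cct6a on the opposite strand. Slc1a5, a glutamine transporter, fell from 101, 140 and 103 CPM to 31.8, 29.3 and 46.3 CPM (−1.67 ± 0.25; edgeR adjusted p = 0.000629). Asns, asparagine synthetase and a widely used ATF4 readout, was at 54.8 CPM in the controls and 50.6 CPM in the cold (−0.12; edgeR adjusted p = 0.699), and Ddit4 (0.61) and Gars (0.36) were not called.

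Of 19 genes of ER calcium handling 7 were tested, with 2 higher, 0 lower and a median of 0.33. Beside Calr, Saraf, which shuts down store-operated calcium entry, rose from 56.0, 50.2 and 66.3 CPM to 156, 174 and 171 CPM (1.53 ± 0.21; edgeR adjusted p = 0.000351). Tmco1 (0.53), Nucb1 (0.33), Sdf4 (0.21), Tmbim6 (0.03) and Tmem33 (−0.57) were not called. Hspa5, Calr and Hsp90b1 carry the KDEL-type signal by which escaped ER proteins are fetched back. Of a list of 10 genes of this retrieval and of cargo transport 6 were tested, with 1 higher, 0 lower and a median of 0.45. That gene was Lman2, a cargo lectin (0.94 ± 0.33; edgeR adjusted p = 0.0485), a call lost under 9 of 14 settings, including DESeq2, each flow cell alone and the removal of any library but control mouse 14. Kdelr1, the only receptor for the KDEL-type signal among the tested genes, stood at 129 and 114 CPM (−0.17, edgeR adjusted p = 0.523). Mcfd2 (0.97; edgeR adjusted p = 0.0619) was called at equal depth (1.47), with library totals alone (1.03) and without control mouse 9 (1.28), and Tmed10 (0.80), Tmed2 (0.10) and Tmed9 (0.01) were not called.

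**Figure D4:**
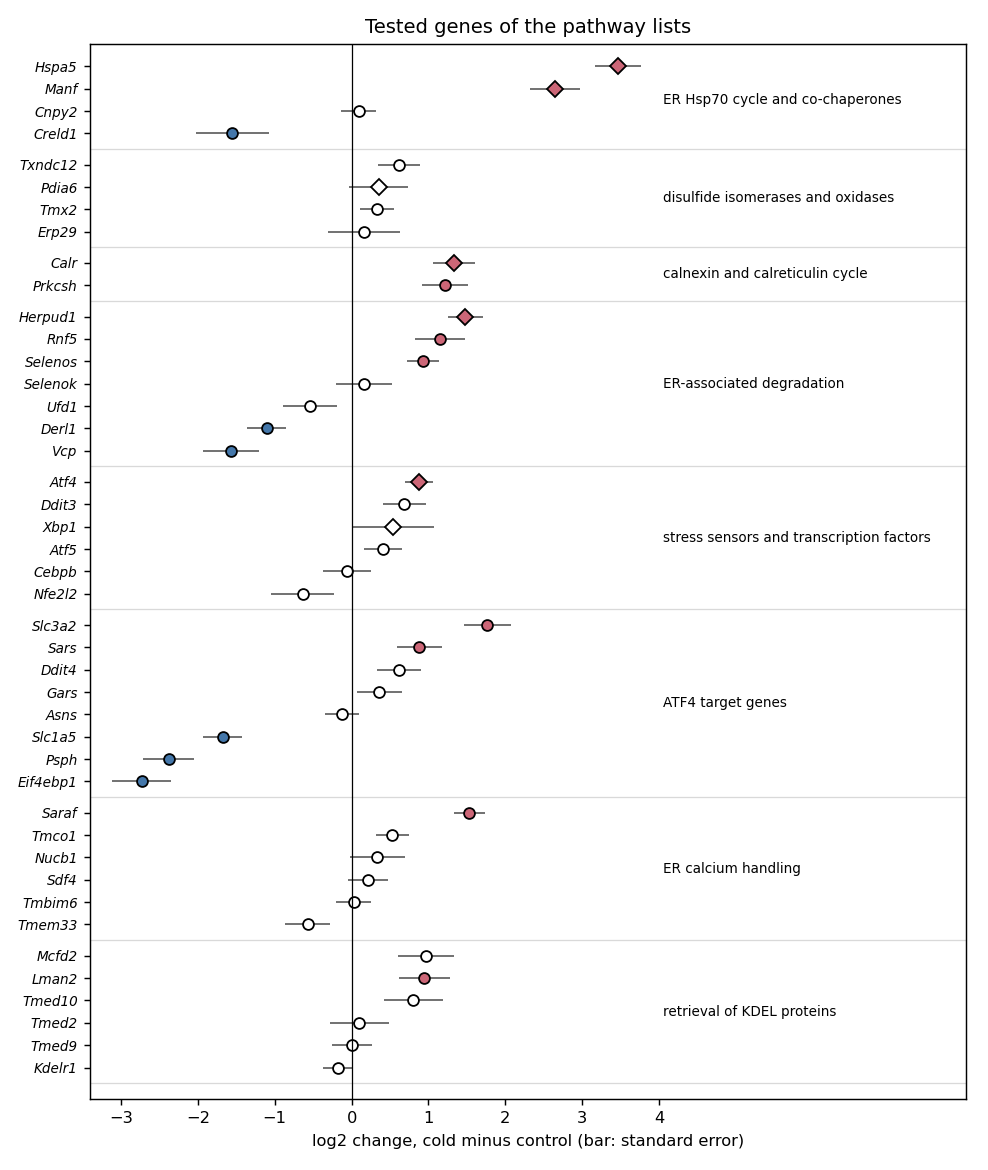
Log2 change, cold minus control, with its standard error for every tested gene of the 8 pathway lists, each gene drawn once under the first list that holds it. Diamonds are members and circles other genes, and red marks a call higher, blue a call lower and white no call. Hspa5 and Manf lie farthest to the right at 3.47 and 2.65, and Eif4ebp1 and Psph farthest to the left at −2.73 and −2.38.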

How the data were processed

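Per the labels, poly(A) RNA was amplified over 27 PCR cycles with the cap-selecting TeloPrime kit, and 400 ng of cDNA entered nanopore ligation libraries. The extraction text names eWAT, a white depot, while tissue and source labels give brown fat, which was used. The deposited files give raw read counts per Ensembl transcript for each of 2 flow cells, and minimap2 and GRCm38 are named in the submitters' processing notes. The assignment of reads that match several transcripts, and any use of strand, are not given in the sources used.

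Counts were summed over flow cells and, through GENCODE M21, over genes. The 22 of 14693 transcript identifiers without a match, at most 0.00433% of the reads in any library, were dropped. The 6 libraries, 1 per mouse, were the replicates. Cold was compared with control in edgeR 4.0.16 (R 4.3.3) by the robust quasi-likelihood test, after filterByExpr at a minimum count of 10 and TMM scaling, with Benjamini-Hochberg adjustment and calls under 0.05. Standard errors were worked back from F, as the absolute log2 change over its square root. Transcripts were tested alike, usage by diffSpliceDGE with Simes p values, and shares by exact permutation over 10 splits. DESeq2 1.42.0 was an alternative. The test scripts were tested on simulated counts. Shared exons were read from the annotation and near-identical copies sought with blastn 2.17.0 (at least 95% identity over 200 bases). Promoter windows are from RefSeq, where 9 of 10 members matched.

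The members and lists were chosen with earlier results of these data known. Named beside the members were all tested list genes, the sensors and transcription factors with reads, and the 5 genes most correlated with Hspa5. The alternative settings followed the members, the tested sensors and transcription factors and, in each list, up to 5 tested genes with the smallest p. Asns, Ddit4, Gars, Selenok, Tmbim6 and Tmed9 were thus not followed through these settings.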

Additional observations from a re-analysis of the deposited data

How the results depend on the processing

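Across 15 alternatives (DESeq2, library totals alone, RLE factors, no count filter, a minimum count of 20, equal depth, each flow cell alone, protein-coding transcripts alone, and each library left out) the members called stayed at 5 higher and 0 lower. The log2 change ran from 3.18 to 3.63 for Hspa5, 2.31 to 2.98 for Manf, 1.36 to 1.60 for Herpud1, 1.08 to 1.54 for Calr and 0.79 to 1.00 for Atf4, with a largest adjusted p of 0.0328, for Atf4. Pdia6 (0.19 to 0.48) and Xbp1 (0.17 to 0.97) were not called under the 8 and 12 alternatives that tested them. Leaving out 1 library gave 275 to 360 genes called higher and 223 to 327 lower, and 271 to 401 transcripts called lower. Signs turned in genes not called: Cebpb with library totals alone (0.0059), without the count filter (0.060) and in the fits that omit a library (−0.44 to 0.23), Cnpy2 on flow cell 2 alone (−0.041), and, with a library left out, Erp29 (−0.21 to 0.60), Nucb1 (−0.036 to 0.62), Tmed2 (−0.21 to 0.36) and Atf4-203 (−0.031 to 0.68). The cause was not tested. Without the count filter the median change of the tested genes moved up by 0.12. No paired analysis was possible because no mouse number occurs in both groups. Hsp90b1, Pdia3 and Pdia4 had too few reads to test, and the intervals of Pdia6 and Xbp1 hold both no change and a rise, so a change is not shown to be absent in any of the 5.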

Other observations

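Several ER genes lay below the low-count filter. When all 8129 genes with reads were fitted, 5.52% of them were called higher, and of the 82 genes of the pathway lists under the filter 2 were called higher and 0 lower by edgeR. Both were named after their values were seen. P values of this fit are not on the scale of the main fit. Hspa5 had a log2 change of 3.59 ± 0.30 here and 3.47 ± 0.30 in the main fit. Its edgeR adjusted p was 6.1e-30 here beside 2.8e-05 there, so the 2 calls are given as a description. Canx, which encodes calnexin, the membrane partner of calreticulin, had 1, 1 and 2 reads in the controls and 14, 12 and 22 in the cold (log2 change 2.61 ± 0.70; edgeR adjusted p = 0.00387). Gdf15, a secreted stress signal and ATF4 target, had 0 reads in each control and 4, 3 and 21 in the cold, with cold mouse 15 supplying most of them (edgeR adjusted p = 0.000719). The median log2 change of the 82 genes was 0.55, beside 0.30 over all 8129 genes fitted in this way. The 8129 include the genes above the filter, so neither 0.30 nor 5.52% is a background of low-count genes. No such background was computed, and the 2 medians set the 82 genes apart from nothing.

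Outside the members, 7 tested genes held the ERSE without its last base, 3 of them called higher and 0 lower, with a median log2 change of 0.60. Over the 1648 tested genes with a promoter window, 18.3% were called higher and 14.4% lower, with a median of 0.06. The full element was held by 2 of the 7, Adcy3 and Hnrnpa3. Adcy3, the adenylate cyclase that is also among the genes most like Hspa5, rose from 5.01 to 135 CPM (4.76 ± 0.38; edgeR adjusted p = 1.8e-05). Cars2 (4.69), a mitochondrial tRNA synthetase, and Lipa (1.42; edgeR adjusted p = 0.0114), the lysosomal acid lipase, held the shorter form and were called higher. Hnrnpa3 (0.60; edgeR adjusted p = 0.258), and, with the shorter form, Isyna1 (−0.41), Pcca (0.02) and Selenok (0.16) were not called. Both tested non-members with ERSE-II, Krtcap2 (0.07) and Nucb1 (0.33), were not called either. The ATF4 element, searched on both strands as TGATG, 1 base of any kind and AA, occurred in 3.97% of windows, among the members in Herpud1. Of 43 other tested genes that held it, 4 were called higher and 10 lower, with a median of −0.15, beside the same 18.3% and 14.4%.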
